A study of Mus musculus with 20 samples.

Results

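The nuclear-encoded subunits of respiratory chain complexes II, III and IV and of the F1Fo ATP synthase (complex V) were followed in mouse embryonic fibroblasts exposed to actinonin. The members were chosen by gene symbol, by a rule that uses no measured value but was written with earlier results of these data known: Sdha to Sdhd, Cyc1, Cycs, all symbols starting with Uqcr, 6 named Cox genes, Atpif1 and all symbols starting with Atp5 that are not pseudogenes. This gave 38 of the 20145 named genes on the array, of which 4 belong to complex II, 9 to complex III, 6 to complex IV and 17 to complex V. Cycs, the mobile electron carrier cytochrome c, and Atpif1, the inhibitor protein of the ATP synthase, make up the rest. All 38 gave signal well above background in 20 of 20 samples, so that none was lost to the filter on dim probes.

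The fibroblasts were of a Balb/c background and grew in medium with added uridine, on which cells without a working respiratory chain depend for making pyrimidines. One group received the ethanol carrier alone at 3 µl per ml (the control, labelled 0 h), and the other groups received actinonin at 150 µM for 6, 24, 48 or 72 h. Actinonin is a hydroxamate that inhibits peptide deformylase, which removes the formyl group from proteins newly made in mitochondria. Each of the 5 groups held 4 samples that the labels call independent, each pooled from several plates, with 2 samples carrying the dye Cy3 and 2 carrying Cy5. Nothing says whether the samples came from separate cell isolates, and the p-values cover only the variation among the samples at hand, which may be technical. The labels do not say when the control was harvested, so time in culture and actinonin cannot be told apart. In cultures measured in bulk, fewer cells of a type and less RNA per cell cannot be told apart either.

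Complex II (succinate dehydrogenase) passes electrons from succinate to ubiquinone, complex III passes them on to cytochrome c, and complex IV (cytochrome c oxidase) hands them to oxygen. Complexes III and IV pump protons, and the ATP synthase uses the returning protons to turn its rotor and make ATP. Complex II is encoded in the nucleus alone, whereas complexes III, IV and V also hold subunits made inside mitochondria, where actinonin acts. The mitochondrially encoded mRNAs were not analysed here. NRF1, the ETS factor GABP and YY1 are transcription factors known to bind promoters of many nuclear genes of the respiratory chain.

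The samples lay in pairs on 10 arrays. Slide 1 held 2 arrays with 2 controls and 2 samples of 6 h, and slide 2 held all samples of the later times. Slide, scan and image software version cannot be told apart. On 9 arrays 50.8% to 58.7% of spots were well above background, and 66.4% and 70.5% were so for the pair on the other array, control 2 Cy3 and 48 h sample 2 Cy5. Samples are named here by the number and dye of their titles. The 10 fibroblast markers examined were above background in 20 of 20 samples. Among markers of other cell types, Ptprc (leukocytes), Krt8 (epithelium), Cdh5 (endothelium), Myog and Myh3 (skeletal muscle) and Adipoq and Plin1 (adipocytes) were above background in 0 samples. Cd14, Csf1r and Itgam (macrophages), Krt14 (epithelium), Pecam1 and Kdr (endothelium), Tnnt2 (cardiac muscle) and Tubb3 and Nes (neural cells) were so in 20, Sox10 in 19, Lyz2 in 16 and Fabp4 in 13. The fibroblast markers themselves moved with the treatment. Their summed level was 19.92 to 20.17 on the log2 scale in the controls, 19.75 to 19.97 at 6 h and 19.50 to 19.60 at 24 h. It was 19.14 to 19.45 at 48 h and 19.51 to 19.67 at 72 h. Of the 10, 3 were called lower at 6 h, 9 at 24 h and at 48 h, and 8 at 72 h, where 1 was called higher. Of everything tested, 11.1%, 19.1%, 20.3% and 22.6% were called lower in order of time, and 25.2% higher at 72 h. Of the 7 macrophage and leukocyte markers 5 were tested, with summed levels of 15.17 to 15.25 in the controls, 15.06 to 15.27 at 6 h, 14.81 to 14.86 at 24 h, 14.90 to 15.11 at 48 h and 14.83 to 15.01 at 72 h. At 24 h, 3 of these 5 were called lower, as were 2 of 2 tested endothelial, 2 of 4 neural and 1 of 2 muscle markers. The adipocyte marker Fabp4 was called lower too, with a log2 change of -0.75 that reached -1.06 at 72 h. At 48 h, 2 of the 5, 0 endothelial, 0 neural and 1 muscle marker were called lower, and at 72 h 2, 1, 2 and 1. At 6 h, 0 markers of these lists were called lower. The 1 tested epithelial marker was called at no time, and no marker of these other lists was called higher at any time. The part of these lists in the results below was not tested.

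In these cells the 38 mRNAs were, as a group, slightly lower from 6 h on. Falls lay on some of the chosen subunits of every complex, and the few rises among the 38 lay in complexes II and III. Complex IV is covered here by 6 of its nuclear-encoded subunits. Among its other subunits, given further below, there were rises too. At 6 h, 15 of 38 were called lower (39.5%) and 1 higher. Over the 24250 genes and transcripts tested, 11.1% were called lower and 13.7% higher at that time. A call here is an adjusted p under 0.05 from limma's moderated test with Benjamini-Hochberg adjustment over all genes and transcripts tested. At 24 h, 11 members were called lower (28.9%) and 2 higher, against 19.1% and 21.2% of everything tested. At 48 h, 22 were called lower (57.9%) and 2 higher, against 20.3% and 21.5%. At 72 h, 17 were called lower (44.7%) and 3 higher, against 22.6% and 25.2%. All members gave strong signals, and genes with strong signals were called lower more often than the rest. Among the 3784 genes at least as bright in the controls as the dimmest member, Sdhc, the shares called lower were 18.1% at 6 h, 29% at 24 h, 32.4% at 48 h and 31.6% at 72 h. Untested, the members' share lay above that of these bright genes at 6, 48 and 72 h and level with it at 24 h. The shares of these bright genes called higher were 14.5%, 26.6%, 28.4% and 29.6%, each above the members' share of 2.63%, 5.26%, 5.26% and 7.89%.

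**Figure D1:**
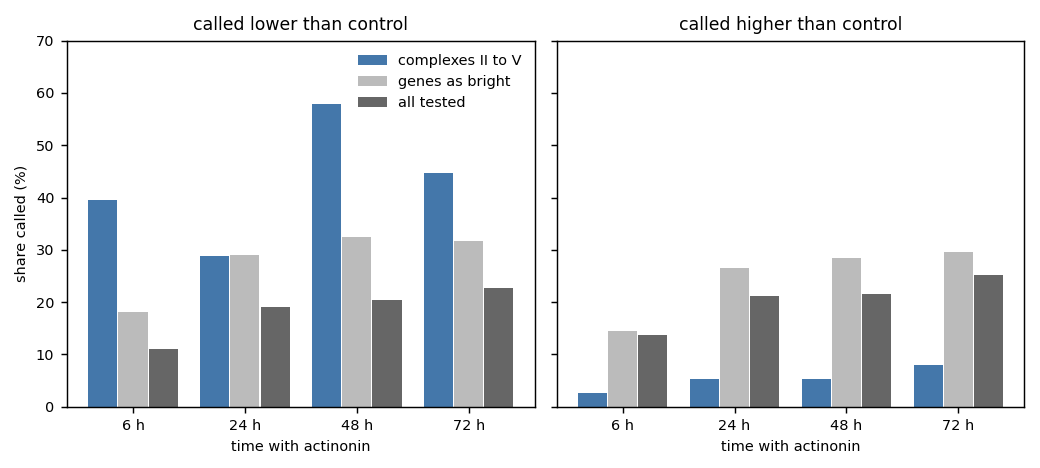
Share of genes called lower (left) or higher (right) than the control, in percent, at each time with actinonin. Blue bars are the 38 mRNAs of complexes II to V, light bars the 3784 genes at least as bright as the dimmest of them, and dark bars all 24250 genes and transcripts tested. The blue bars reach 57.9% at 48 h on the left and stay at 7.89% or less on the right.

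The sizes were small. Normalization sets the samples to a common scale, so that a change shared by all genes would not be seen. The median log2 change of the 38 mRNAs was -0.10 at 6 h, -0.08 at 24 h, -0.17 at 48 h and -0.13 at 72 h, where the median over everything tested was 0.00, 0.01, 0.00 and 0.00. Below 0 were 30 of 38 at 6 h, 29 at 24 h, 34 at 48 h and 31 at 72 h. All 4 values lay below all 4 controls for 13 members at 6 h, 16 at 24 h, 20 at 48 h and 21 at 72 h, against 10.1%, 20.8%, 18.4% and 23.7% of everything tested. All 4 lay above the controls for 2, 3, 1 and 3 members, against 12.7%, 23.3%, 19.4% and 26.1%. Called lower at all 4 times were 8 mRNAs (Uqcrc1, Uqcrh, Cox6c, Cox7b, Atp5g3, Atp5j, Atp5k and Atp5o), against 5.54% of everything tested. Called at none of the 4 times were 10 (Sdha, Cyc1, Uqcr10, Cox5a, Cox5b, Atp5g1, Atp5g2, Atp5h, Atp5pb and Atpif1), against 36.9%. Sdhb, Uqcrc2 and Uqcrq were the members called higher at 1 or more times, where 34.7% of everything tested was, and 0 members were called in opposite directions at different times. The 4 comparisons share the same 4 controls, so that the counts over times are not independent. In either direction 16, 13, 24 and 20 members were called in order of time, against 24.8%, 40.3%, 41.8% and 47.7% of everything tested. At 6 h the count varied with the samples used. Without control 1 Cy3, 10 members were called in place of 16. Within slide 2 there were 10, and within slide 1, with 2 samples a side, there were 0 (median log2 changes of -0.12 and -0.10). Fewer samples leave less power, and the shares of everything tested in these fits were not compared. Within slide 2 the counts at the later times were 13 lower and 2 higher, 23 and 2, and 18 and 3. Of the 13 calls at 24 h, 3 were left with loess normalization alone, those of Uqcrc1 and Uqcrh as lower and of Uqcrq as higher.

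**Figure D2:**
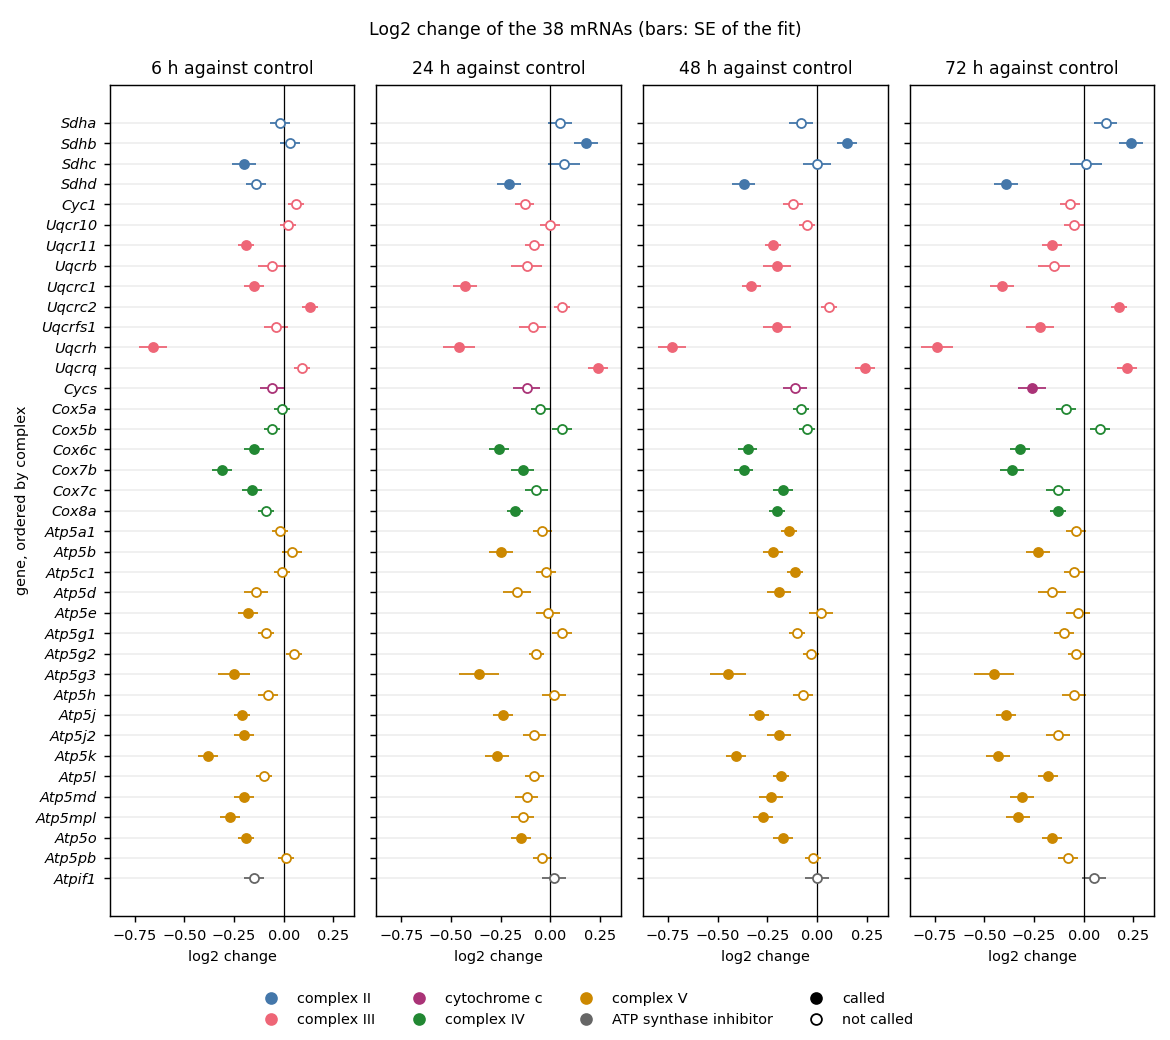
Log2 change of each of the 38 mRNAs against the control at 6, 24, 48 and 72 h, with the standard error of the fit as bars. Colours mark the complexes, filled points are called and open points are not. Uqcrh lies farthest to the left at every time, and the points to the right that are filled belong to Sdhb, Uqcrc2 and Uqcrq.

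Promoter sequences from RefSeq (assembly GRCm38.p6) were matched by symbol for 30 of the 38 genes, with 33 promoters of 300 bases each, from upstream of the annotated start to just after it. No promoter was used for Atp5a1, Atp5mpl, Cox6c, Cyc1, Sdhc, Uqcrb, Uqcrc2 and Uqcrq. The promoters below belong to the largest called fall of complexes III and IV (Uqcrh and Cox7b), to the largest falls of complex V (Atp5g3 and Atp5k), to the core protein gene Uqcrc1 with NRF1 motifs, and to Sdhb, which rose. Capitals mark matches on either strand to the NRF1 motif GCGCANGCG, the ETS motif CCGGAAG bound by GABP, or the YY1 motif AANATGGC.
Uqcrh (chr4:116075021-116075320, minus strand): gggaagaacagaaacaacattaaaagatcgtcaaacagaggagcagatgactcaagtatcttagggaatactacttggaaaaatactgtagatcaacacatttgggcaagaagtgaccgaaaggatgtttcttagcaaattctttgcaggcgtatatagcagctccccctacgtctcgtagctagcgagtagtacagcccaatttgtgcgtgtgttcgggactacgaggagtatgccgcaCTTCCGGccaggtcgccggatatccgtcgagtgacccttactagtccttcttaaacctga
Uqcrc1 (chr9:108936398-108936697, plus strand): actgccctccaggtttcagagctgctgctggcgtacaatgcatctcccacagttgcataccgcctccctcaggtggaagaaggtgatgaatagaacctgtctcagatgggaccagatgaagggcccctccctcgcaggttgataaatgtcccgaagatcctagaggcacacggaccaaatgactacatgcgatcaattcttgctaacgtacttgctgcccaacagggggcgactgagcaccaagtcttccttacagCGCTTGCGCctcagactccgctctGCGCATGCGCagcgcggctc
Cox7b (chrX:106015450-106015749, plus strand): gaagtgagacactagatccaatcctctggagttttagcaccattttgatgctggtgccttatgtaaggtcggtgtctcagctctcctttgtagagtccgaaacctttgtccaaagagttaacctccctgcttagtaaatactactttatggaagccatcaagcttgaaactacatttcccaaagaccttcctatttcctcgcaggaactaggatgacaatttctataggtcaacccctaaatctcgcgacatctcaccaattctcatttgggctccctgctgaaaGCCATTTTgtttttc
Atp5g3 (chr2:73911277-73911576, minus strand): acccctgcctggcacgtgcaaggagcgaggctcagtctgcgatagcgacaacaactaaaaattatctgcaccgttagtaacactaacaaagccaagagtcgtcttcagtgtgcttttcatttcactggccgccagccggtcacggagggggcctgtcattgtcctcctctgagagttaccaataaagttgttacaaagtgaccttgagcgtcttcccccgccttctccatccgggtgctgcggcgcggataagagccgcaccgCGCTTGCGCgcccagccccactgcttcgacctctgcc
Atp5k (chr5:108434350-108434649, minus strand): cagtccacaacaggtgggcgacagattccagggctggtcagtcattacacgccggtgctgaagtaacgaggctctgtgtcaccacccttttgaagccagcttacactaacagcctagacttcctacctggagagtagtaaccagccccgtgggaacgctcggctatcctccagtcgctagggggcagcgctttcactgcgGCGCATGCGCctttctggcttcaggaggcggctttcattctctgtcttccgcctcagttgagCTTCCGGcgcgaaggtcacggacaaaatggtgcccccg
Sdhb (chr4:140961021-140961320, plus strand): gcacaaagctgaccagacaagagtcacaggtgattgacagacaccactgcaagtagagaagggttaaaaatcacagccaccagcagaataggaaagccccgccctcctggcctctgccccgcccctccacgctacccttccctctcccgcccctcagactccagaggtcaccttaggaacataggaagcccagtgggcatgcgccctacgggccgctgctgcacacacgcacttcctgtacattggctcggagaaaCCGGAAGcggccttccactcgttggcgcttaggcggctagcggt
The promoters of Uqcrh and Sdhb each hold 1 ETS match, that of Uqcrc1 holds 2 NRF1 stretches, and that of Atp5k holds 1 NRF1 and 1 ETS match. Cox7b has 1 YY1 match and Atp5g3 has 1 NRF1 match. Overlapping matches on both strands were counted as 1 stretch.

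Over all members, the NRF1 motif was found in 13 of 33 promoters (39.4%), against 6.25% of all 32851 promoters of the table. The ETS motif was found in 11 (33.3%), against 8.86%, and the YY1 motif in 6 (18.2%), against 6.05%. The members' promoters had a median of 57.7% G and C, against 52.7%, and the part of base composition in these shares was not tested. Among the 20 genes with a promoter that were called lower at 1 or more times, 9 held an NRF1 match, 9 an ETS match and 4 a YY1 match. Among the 9 that were called at no time, these numbers were 4, 1 and 2. NRF1 matches were thus found at similar shares in genes that fell and in genes that were not called. No test was made of these small groups, and a match is a description of the letters, not of binding.

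Complex II moved in both directions. Of its 4 genes 1 was called lower at each time, and 1 was called higher at 24, 48 and 72 h. From 24 h on these shares of 25% were near those of everything tested. The latter were 19.1%, 20.3% and 22.6% lower and 21.2%, 21.5% and 25.2% higher. At 6 h 11.1% of everything tested was called lower and 13.7% higher. The values that follow are normalised log2 intensities with the fitted dye and slide terms removed, in the order 1 Cy3, 1 Cy5, 2 Cy3 and 2 Cy5 for each group. Sdhb, which encodes the iron-sulfur subunit, measured 14.46, 14.49, 14.48 and 14.49 in the controls, 14.60, 14.73, 14.69 and 14.63 at 24 h, and 14.72, 14.73, 14.67 and 14.72 at 72 h. All 24 h and 72 h samples lay above all controls, whereas at 48 h (14.72, 14.47, 14.68 and 14.62) sample 1 Cy5 fell within the control range. Sdhb rose by 0.18 ± 0.06 (log2 change ± standard error of the fit, here and throughout, n = 4 per group) at 24 h (adjusted p = 0.0186), by 0.15 ± 0.05 at 48 h (adjusted p = 0.0336) and by 0.24 ± 0.06 at 72 h (adjusted p = 0.00297). At 6 h its log2 change was 0.03 ± 0.05 (adjusted p = 0.739). Its other probe was called higher at 24, 48 and 72 h too.

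Sdhd, which encodes a membrane anchor of the complex, went the other way. Its controls measured 14.24, 14.18, 14.36 and 14.15, its 48 h samples 13.76, 13.81, 13.91 and 13.97, and its 72 h samples 13.86, 13.79, 13.77 and 13.92. The samples of 24 h (14.01, 14.09, 14.07 and 13.92), 48 h and 72 h all lay below every control. Sdhd fell by 0.21 ± 0.06 at 24 h (adjusted p = 0.0153), by 0.37 ± 0.06 at 48 h (adjusted p = 3.95e-05) and by 0.39 ± 0.06 at 72 h (adjusted p = 5.60e-05). The 6 h value was -0.14 ± 0.05 (adjusted p = 0.0586). Sdhc, the other membrane anchor, fell at 6 h alone among the times, by 0.20 ± 0.06 (adjusted p = 0.0233), with 12.60, 12.76, 12.50 and 12.68 against 12.89, 12.81, 13.00 and 12.68 in the controls, so that the groups overlapped. From 6 h to 24 h Sdhc rose again by 0.27 ± 0.08 (adjusted p = 0.0103, called in all 20 fits without 1 library), and its later values against the control were 0.07, 0.00 and 0.01. Sdha, the flavoprotein that oxidises succinate, was called at no time, with log2 changes of -0.08 to 0.11. The median of the 4 genes moved from -0.08 at 6 h to 0.06, -0.04 and 0.06, and leaving out control 2 Cy3 turned the 48 h median to 0.03.

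Several of these calls rested on single libraries. The 24 h call of Sdhb was lost without control 2 Cy5 (0.18) or 24 h sample 1 Cy5 (0.16), and its 48 h call was lost without any of 8 libraries (0.11 to 0.15), 3 of them controls, 3 of 48 h and 2 of 6 h. The 6 h call of Sdhc was lost without control 1 Cy3 (-0.19), 1 Cy5 (-0.20) or 2 Cy3 (-0.15) or 6 h sample 1 Cy3 (-0.20) or 2 Cy3 (-0.14). The 24 h call of Sdhd was lost without control 2 Cy3 (-0.14) or 24 h sample 2 Cy5 (-0.18). The calls of Sdhd at 48 h and 72 h and of Sdhb at 72 h held in all 20 fits that left out 1 library.

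In complex III the largest fall of all 38 mRNAs was that of Uqcrh, the acidic hinge protein that sits beside cytochrome c1. Its controls measured 15.29, 14.97, 15.32 and 15.21, the 6 h samples 14.51, 14.73, 14.45 and 14.41, and the 24 h samples 14.77, 14.68, 14.71 and 14.76. At 48 h it measured 14.36, 14.51, 14.48 and 14.53, and at 72 h 14.45, 14.47, 14.41 and 14.48. Every treated sample lay below every control, and the 24 h samples lay above those of 48 h and 72 h. Uqcrh fell by 0.66 ± 0.07 at 6 h (1.58-fold lower, adjusted p = 1.17e-06), by 0.46 ± 0.08 at 24 h (1.38-fold lower, adjusted p = 0.000180), by 0.73 ± 0.07 at 48 h (1.65-fold lower, adjusted p = 2.34e-07) and by 0.74 ± 0.08 at 72 h (1.67-fold lower, adjusted p = 6.36e-07). The step from 24 h to 48 h was itself a fall, by 0.26 ± 0.07 (adjusted p = 0.0278), and the step before it measured 0.20 ± 0.08 (adjusted p = 0.0675). The call of that fall was lost without 24 h sample 1 Cy3 (-0.25), 2 Cy3 (-0.27) or 2 Cy5 (-0.25) or 48 h sample 1 Cy3 (-0.22). The other probe of Uqcrh was called lower at the same 4 times, and its step from 24 h to 48 h (-0.18) was not called. With the controls and 6 h samples of each slide alone, its 6 h change was -0.54 within slide 1 and -0.80 within slide 2. The limma test of the difference between slides, over all 20 samples, gave an adjusted p of 1 (unadjusted 0.0399). Over all members 0 showed a called difference between the slides, as did 0.0289% of everything tested.

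Uqcrc1, one of the core proteins, had controls of 13.11, 12.97, 12.94 and 13.07, 24 h values of 12.69, 12.51, 12.65 and 12.52, and 72 h values of 12.56, 12.71, 12.56 and 12.62. All treated samples lay below the controls, those of 6 h (12.88, 12.84, 12.89 and 12.90) only just. It fell by 0.15 ± 0.05 at 6 h (adjusted p = 0.0435), by 0.43 ± 0.06 at 24 h (adjusted p = 2.15e-05), by 0.33 ± 0.05 at 48 h (adjusted p = 6.64e-05) and by 0.41 ± 0.06 at 72 h (adjusted p = 2.15e-05). Its partner core protein gene Uqcrc2 went in the other direction, with controls of 13.55, 13.58, 13.55 and 13.56 and 72 h values of 13.77, 13.79, 13.73 and 13.70. Uqcrc2 rose by 0.13 ± 0.04 at 6 h (adjusted p = 0.0169) and by 0.18 ± 0.04 at 72 h (adjusted p = 0.00247), and measured 0.06 ± 0.04 at 24 h and at 48 h. The 6 h call of Uqcrc2 was lost without control 1 Cy3 (0.12) or 6 h sample 1 Cy5 (0.10). That of Uqcrc1 was lost without any of 11 libraries (-0.16 to -0.10), among them all 4 of 6 h, control 1 Cy3 (-0.10) and control 2 Cy5 (-0.13), with 2 of 48 h and 3 of 72 h.

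Uqcrq, a small subunit at the ubiquinone side, had controls of 15.70, 15.57, 15.67 and 15.63. It measured 15.82, 15.94, 15.91 and 15.85 at 24 h, 15.84, 15.88, 15.90 and 15.91 at 48 h, and 15.81, 15.87, 15.85 and 15.91 at 72 h, all above the controls. Uqcrq rose by 0.24 ± 0.05 at 24 h (adjusted p = 0.00106), by 0.24 ± 0.05 at 48 h (adjusted p = 0.000232) and by 0.22 ± 0.05 at 72 h (adjusted p = 0.00148). In a fit without the slide term these 3 calls were lost, with log2 changes of 0.08, 0.17 and 0.07. Uqcr11, another small subunit, measured 14.80, 14.76, 14.79 and 14.79 in the controls and 14.55, 14.50, 14.64 and 14.56 at 48 h. Its treated samples were all below the controls. Uqcr11 fell by 0.19 ± 0.04 at 6 h (adjusted p = 0.00192), by 0.22 ± 0.04 at 48 h (adjusted p = 0.000432) and by 0.16 ± 0.05 at 72 h (adjusted p = 0.0107), and measured -0.08 ± 0.05 at 24 h (adjusted p = 0.200).

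Uqcrfs1, the Rieske iron-sulfur protein, fell by 0.20 ± 0.07 at 48 h and by 0.22 ± 0.07 at 72 h (adjusted p = 0.0231 and 0.0201). Uqcrb, a ubiquinone-binding subunit, fell by 0.20 ± 0.07 at 48 h (adjusted p = 0.0312). Each of these 3 calls was lost without control 2 Cy3 (-0.14, -0.16 and -0.14 in that order). The call of Uqcrfs1 at 48 h was lost also without 48 h sample 1 Cy3 (-0.17) or 1 Cy5 (-0.16), its 72 h call without 72 h sample 1 Cy5 (-0.20), and the call of Uqcrb without control 1 Cy3 (-0.19), 48 h sample 1 Cy3 (-0.17) or 1 Cy5 (-0.16), or 6 h sample 2 Cy3 (-0.16). Cyc1, which encodes cytochrome c1, and Uqcr10 were not called against the control, with log2 changes of -0.13 to 0.06 and -0.05 to 0.02. Cyc1 was nevertheless lower at 24 h than at 6 h, with a log2 change of -0.19 ± 0.05 (adjusted p = 0.00990), a call lost without 6 h sample 2 Cy5 (-0.16). Cycs fell at 72 h by 0.26 ± 0.07 (adjusted p = 0.00589), with 14.24, 14.26, 14.29 and 14.42 against 14.45, 14.71, 14.62 and 14.45 in the controls. All 72 h samples lay below the controls. Of 2 other probes of Cycs, 1 was called lower at 72 h (log2 change -0.39) and 1 was not (0.00). Over complex III with cytochrome c, 3 of 10 were called lower and 1 higher at 6 h, and 2 and 1 at 24 h. The counts were 5 and 1 at 48 h and 5 and 2 at 72 h. Everything tested gave 11.1%, 19.1%, 20.3% and 22.6% lower and 13.7%, 21.2%, 21.5% and 25.2% higher in order of time.

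**Figure D3:**
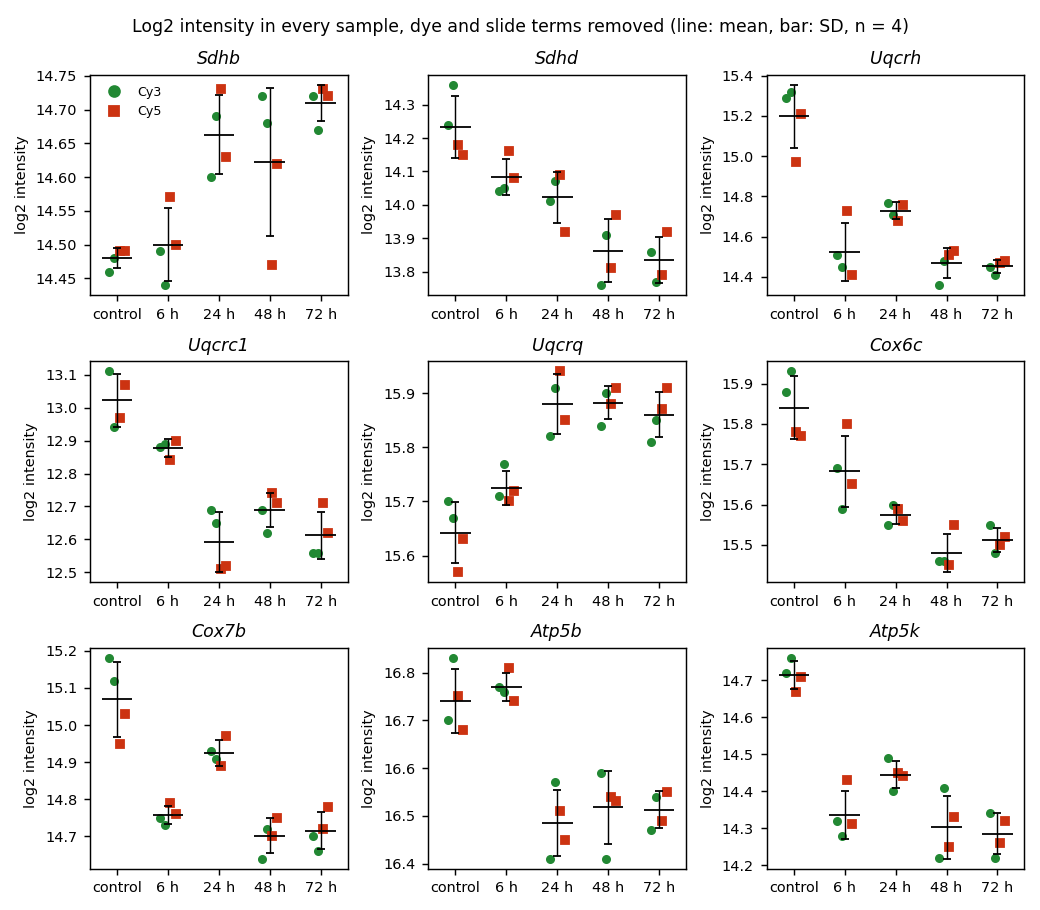
Log2 intensity in each of the 20 samples for 9 mRNAs, with the dye and slide terms removed. Green circles are Cy3 and red squares Cy5 samples, lines are group means and bars standard deviations (n = 4). The treated Uqcrh samples lie at 14.77 or below and the controls at 14.97 or above, whereas Sdhb and Uqcrq lie higher at 72 h than in the controls.

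In complex IV, 3, 3, 4 and 3 of the 6 chosen subunits were called lower in order of time (66.7% at 48 h). Of everything tested, 11.1%, 19.1%, 20.3% and 22.6% were called lower. None of the 6 was called higher at any time, against 13.7%, 21.2%, 21.5% and 25.2% of everything tested. All 6 are small subunits that surround the catalytic core made inside mitochondria. Cox7b measured 15.18, 14.95, 15.12 and 15.03 in the controls, 14.75, 14.79, 14.73 and 14.76 at 6 h, and 14.93, 14.89, 14.91 and 14.97 at 24 h. At 48 h it measured 14.64, 14.70, 14.72 and 14.75, and at 72 h 14.70, 14.72, 14.66 and 14.78. The samples of 6, 48 and 72 h lay below all controls, and those of 24 h reached into the control range. Cox7b fell by 0.31 ± 0.05 at 6 h (adjusted p = 7.19e-05), by 0.14 ± 0.06 at 24 h (adjusted p = 0.0490), by 0.37 ± 0.05 at 48 h (adjusted p = 8.39e-06) and by 0.36 ± 0.06 at 72 h (adjusted p = 4.18e-05). Both steps around 24 h were called, a rise by 0.17 ± 0.06 from 6 h (adjusted p = 0.0267) and a fall by 0.23 ± 0.05 to 48 h (adjusted p = 0.00848). The rise was lost without 24 h sample 1 Cy3 (0.17) or 2 Cy5 (0.15) or 6 h sample 1 Cy3 (0.16) or 2 Cy5 (0.17), and the fall held without any 1 library. The 24 h call against the control was marginal and was lost without any of 17 libraries, with log2 changes of -0.16 to -0.12.

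Cox6c measured 15.88, 15.78, 15.93 and 15.77 in the controls and 15.46, 15.45, 15.46 and 15.55 at 48 h. All samples of 24, 48 and 72 h lay below the controls, and 6 h sample 1 Cy5, at 15.80, lay among them. Cox6c fell by 0.15 ± 0.05 at 6 h (adjusted p = 0.0228), by 0.26 ± 0.05 at 24 h (adjusted p = 0.000872), by 0.35 ± 0.05 at 48 h (adjusted p = 1.01e-05) and by 0.32 ± 0.05 at 72 h (adjusted p = 8.89e-05). Its 6 h call was lost without control 1 Cy3 (-0.14) or 2 Cy3 (-0.12) or 6 h sample 2 Cy3 (-0.11) or 2 Cy5 (-0.14). Cox8a had controls of 16.38, 16.37, 16.46 and 16.39 and 48 h values of 16.16, 16.21, 16.18 and 16.22. It fell by 0.18 ± 0.04 at 24 h (adjusted p = 0.00284), by 0.20 ± 0.04 at 48 h (adjusted p = 0.000302) and by 0.13 ± 0.04 at 72 h (adjusted p = 0.0234). The treated samples all lay below the controls, also at 6 h, where the change of -0.09 ± 0.04 was not called. The 72 h call was lost without control 2 Cy3 (-0.09) or 2 Cy5 (-0.13) or 72 h sample 1 Cy5 or 2 Cy3 (-0.12 each).

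Cox7c measured 14.42, 14.27, 14.41 and 14.33 in the controls, 14.12, 14.27, 14.14 and 14.22 at 6 h, and 14.19, 14.05, 14.24 and 14.24 at 48 h. It fell by 0.16 ± 0.05 at 6 h (adjusted p = 0.0236) and by 0.17 ± 0.05 at 48 h (adjusted p = 0.0128). Of 2 other probes of Cox7c, 1 was called lower at both times (-0.15 and -0.18) and 1 at neither (-0.13 and 0.00). The 6 h call was also lost without control 1 Cy3 (-0.13) or 2 Cy3 (-0.14) or 6 h sample 1 Cy3 or 2 Cy3 (-0.14 each), and the 48 h call without control 2 Cy3 (-0.14). Cox5a and Cox5b, which dock onto the core on the matrix side, were not called against the control, with log2 changes of -0.09 to -0.01 and -0.06 to 0.08. 

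Of the 17 ATP synthase genes, 8 were called lower at 6 h, 5 at 24 h, 12 at 48 h and 8 at 72 h, and none was called higher than the control at any time. These falls made up 47.1%, 29.4%, 70.6% and 47.1% of the 17 in order of time. Over everything tested the shares called lower were 11.1%, 19.1%, 20.3% and 22.6%, and those called higher 13.7%, 21.2%, 21.5% and 25.2%. The median log2 change of the 17 was -0.14, -0.08, -0.18 and -0.16. In the catalytic F1 head, Atp5b (subunit beta, which carries the catalytic sites) measured 16.70, 16.75, 16.83 and 16.68 in the controls and 16.77, 16.81, 16.76 and 16.74 at 6 h. It then measured 16.41, 16.51, 16.57 and 16.45 at 24 h, 16.59, 16.54, 16.41 and 16.53 at 48 h, and 16.47, 16.49, 16.54 and 16.55 at 72 h. The 6 h samples overlapped the controls and the later samples all lay below them. Atp5b fell by 0.25 ± 0.06 at 24 h (adjusted p = 0.00180), by 0.22 ± 0.05 at 48 h (adjusted p = 0.00182) and by 0.23 ± 0.06 at 72 h (adjusted p = 0.00322). The step from 6 h to 24 h was a fall by 0.29 ± 0.06 (adjusted p = 0.000661). The other F1 subunits were each called once: Atp5a1 (alpha) at 48 h with -0.14 ± 0.04, Atp5c1 (gamma, the rotor shaft) at 48 h with -0.11 ± 0.04, Atp5d (delta) at 48 h with -0.19 ± 0.06 and Atp5e (epsilon) at 6 h with -0.18 ± 0.05. All 4 calls were lost without 1 or more single libraries: that of Atp5a1 without control 2 Cy3 (-0.14), that of Atp5e without control 2 Cy5 (-0.17) or 6 h sample 1 Cy3 (-0.14), that of Atp5d without control 2 Cy5 (-0.15) or 48 h sample 1 Cy3 (-0.16) or 2 Cy3 (-0.18), and that of Atp5c1 without any of 14 libraries (-0.13 to -0.08).

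The proton-driven ring is built from subunit c, whose mature protein is encoded alike by Atp5g1, Atp5g2 and Atp5g3. Atp5g3 measured 15.95, 16.15, 16.16 and 15.91 in the controls, 15.91, 16.01, 15.56 and 15.70 at 6 h, and 15.69, 15.71, 15.75 and 15.61 at 24 h. It measured 15.57, 15.59, 15.62 and 15.61 at 48 h, and 15.62, 15.61, 15.60 and 15.54 at 72 h. The 6 h samples were spread and overlapped the controls, whereas those of the later times lay close together and below them. Atp5g3 fell by 0.25 ± 0.08 at 6 h (adjusted p = 0.0285), by 0.36 ± 0.10 at 24 h (adjusted p = 0.00699), by 0.45 ± 0.09 at 48 h (adjusted p = 0.000351) and by 0.45 ± 0.10 at 72 h (adjusted p = 0.000822). Its 6 h call was lost without control 1 Cy5 (-0.17) or 2 Cy3 (-0.21) or 6 h sample 2 Cy3 (-0.13) or 2 Cy5 (-0.21), and its 24 h call without control 2 Cy3 (-0.28).

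Atp5g1 and Atp5g2 were not called against the control at any time. Atp5g1 measured 15.07, 15.11, 15.09 and 15.10 in the controls, 15.13, 15.15, 15.22 and 15.11 at 24 h and 14.99, 14.92, 15.04 and 15.01 at 48 h. Its log2 changes were -0.09, 0.06, -0.10 and -0.10 in order of time, and its samples of 6 h and 48 h lay just below the controls. Between times, Atp5g1 rose by 0.15 ± 0.05 from 6 h to 24 h and fell by 0.16 ± 0.04 from 24 h to 48 h. Atp5g2 measured 16.38, 16.39, 16.35 and 16.38 in the controls and 16.35, 16.34, 16.32 and 16.36 at 72 h, with log2 changes of 0.05, -0.07, -0.03 and -0.04. Whether the isoforms changed unequally was examined on the difference of their log2 values within each sample. A two-sided permutation test of 4 against 4 samples was used, which cannot go below p = 0.0286. It treats samples as interchangeable, although controls shared arrays with samples of 6 h and 48 h. The dye and slide terms had also been fitted beforehand over all 20 samples. Its p-values are therefore not exact and do not decide the question. Each adjusted p of 0.0429 below stands for a p at that floor. This test was added after the values were seen, with 12 comparisons of 3 pairs at 4 times. The change of Atp5g3 minus that of Atp5g1 was -0.41 ± 0.06 at 24 h, -0.34 ± 0.07 at 48 h and -0.35 ± 0.08 at 72 h. The errors here are standard errors of the sample differences, with n = 4 per group. The permutation p was 0.0286 and the adjusted p 0.0429 at each of these times. For Atp5g3 against Atp5g2 the differences were -0.29 ± 0.07, -0.43 ± 0.08 and -0.42 ± 0.07 at these times. The permutation p of 0.0286 and adjusted p of 0.0429 were the same at each. At 6 h the differences of Atp5g3 from Atp5g1 and Atp5g2 were -0.15 ± 0.13 and -0.30 ± 0.14 (permutation p = 0.314 and 0.114, adjusted 0.314 and 0.137). Between Atp5g1 and Atp5g2 the difference was -0.15 ± 0.02 at 6 h and 0.13 ± 0.03 at 24 h, with opposite signs at these times. The permutation p was 0.0286 and the adjusted p 0.0429 at both. At 48 h and 72 h this difference was -0.08 ± 0.05 and -0.07 ± 0.03 (permutation p = 0.200 and 0.0571, adjusted 0.218 and 0.0761).

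**Figure D4:**
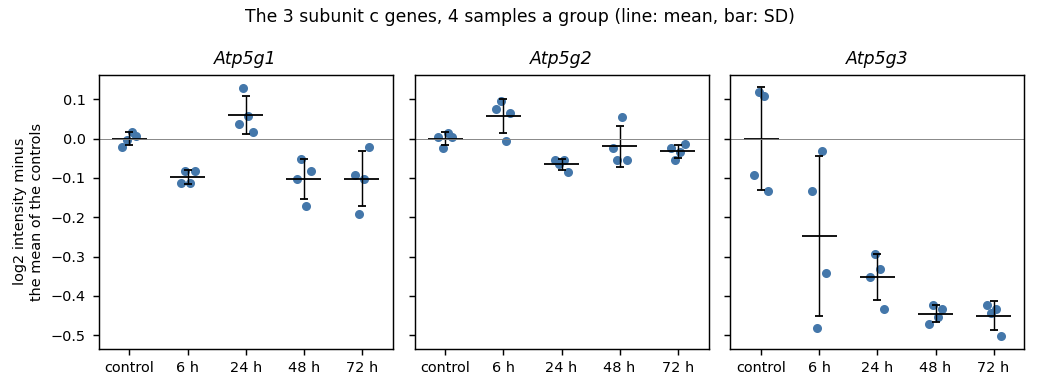
Log2 intensity of the 3 subunit c genes in each of the 4 samples of a group, minus the mean of that gene's controls. Lines are group means and bars standard deviations. Atp5g3 lies below its controls in all samples of 24, 48 and 72 h, while Atp5g1 and Atp5g2 stay near 0.

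The peripheral stalk, which holds the F1 head still against the turning ring, was split. Atp5j, coupling factor 6, measured 15.08, 15.02, 15.06 and 14.96 in the controls, 14.84, 14.87, 14.75 and 14.86 at 6 h, and 14.68, 14.63, 14.59 and 14.69 at 72 h. All treated samples of all times lay below the controls. It fell by 0.21 ± 0.04 at 6 h (adjusted p = 0.00208), by 0.24 ± 0.05 at 24 h (adjusted p = 0.00172), by 0.29 ± 0.05 at 48 h (adjusted p = 6.22e-05) and by 0.39 ± 0.05 at 72 h (adjusted p = 9.34e-06). Atp5o, the subunit that joins the stalk to F1, fell at all 4 times, by 0.19 ± 0.04, 0.15 ± 0.05, 0.17 ± 0.05 and 0.16 ± 0.05. Its later calls were lost without control 2 Cy5 (-0.12 at 24 h, -0.15 at 48 h and -0.13 at 72 h), that of 24 h also without 24 h sample 1 Cy5 (-0.13) or 2 Cy3 (-0.14) or 6 h sample 2 Cy5 (-0.14), and that of 72 h without 72 h sample 2 Cy3 (-0.15). Atp5pb (subunit b) and Atp5h (subunit d) were called at no time, with log2 changes of -0.08 to 0.01 and -0.08 to 0.02. A second probe of Atp5h was called lower at 6, 48 and 72 h, by 0.10, 0.14 and 0.13.

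Atp5k, Atp5l, Atp5j2, Atp5md and Atp5mpl encode small membrane subunits, which help ATP synthases pair into dimers at the cristae or stabilise the complex. Atp5k (subunit e) measured 14.72, 14.67, 14.76 and 14.71 in the controls and 14.32, 14.43, 14.28 and 14.31 at 6 h. It measured 14.49, 14.45, 14.40 and 14.44 at 24 h, 14.22, 14.25, 14.41 and 14.33 at 48 h, and 14.34, 14.26, 14.22 and 14.32 at 72 h. No treated sample reached the controls. Atp5k fell by 0.38 ± 0.05 at 6 h (1.30-fold lower, adjusted p = 1.20e-05), by 0.27 ± 0.06 at 24 h (1.21-fold, adjusted p = 0.000952), by 0.41 ± 0.05 at 48 h (1.33-fold, adjusted p = 2.72e-06) and by 0.43 ± 0.06 at 72 h (1.35-fold, adjusted p = 6.13e-06). Both of its probes were called lower at all 4 times. Its 6 h change was -0.33 within slide 1 and -0.42 within slide 2.

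Atp5mpl, a small proteolipid subunit, measured 15.09, 15.11, 15.20 and 15.05 in the controls, 14.82, 14.89, 14.82 and 14.84 at 6 h, and 14.87, 14.77, 14.72 and 14.79 at 72 h. All treated samples lay below the controls, those of 24 h (14.96, 15.04, 14.94 and 14.95) barely. It fell by 0.27 ± 0.05 at 6 h (adjusted p = 0.000391), by 0.27 ± 0.05 at 48 h (adjusted p = 0.000315) and by 0.33 ± 0.06 at 72 h (adjusted p = 0.000133), and its 24 h value was -0.14 ± 0.06 (adjusted p = 0.0621). Atp5md, the other small subunit of this kind, fell by 0.20 ± 0.05, 0.23 ± 0.06 and 0.31 ± 0.06 at 6, 48 and 72 h, with -0.12 ± 0.06 at 24 h. Atp5j2 (subunit f) fell at 6 h by 0.20 ± 0.05 and at 48 h by 0.19 ± 0.06, and Atp5l (subunit g) at 48 h and at 72 h by 0.18 (standard errors 0.04 and 0.05). Of these 5 genes, grouped here by role after their values were seen, all were called lower at 48 h and Atp5k alone at 24 h. The 4 other probes of Atp5l were called lower also at 6 h, with log2 changes of -0.22 to -0.16, where its own probe measured -0.10. The 6 h calls of Atp5md and Atp5j2 were lost without 6 h sample 2 Cy3 (-0.16) and control 1 Cy3 (-0.11). Atpif1, whose protein blocks the synthase from running backwards, was not called, with log2 changes of -0.15, 0.02, 0.00 and 0.05.

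**Figure D5:**
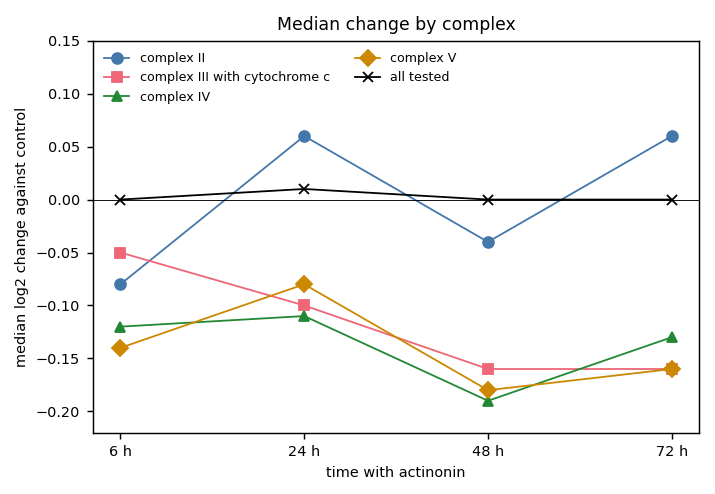
Median log2 change against the control by complex and time, with the median over everything tested as crosses. Complexes IV and V and complex III with cytochrome c lie below 0 at all 4 times, lowest at 48 h with -0.19 for complex IV and -0.18 for complex V. Complex IV covers the 6 genes chosen here and not its other subunits. Complex II lies at 0.06 at 24 h and 72 h. Its 48 h value (-0.04) and the 6 h value of complex III (-0.05) change sign without control 2 Cy3 (0.03) and 6 h sample 2 Cy3 (0.02).

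Between consecutive times few members moved. From 6 h to 24 h, 4 were called lower (Cyc1, Uqcrc1, Atp5b and Atp5g2) and 4 higher (Sdhc, Uqcrq, Cox7b and Atp5g1), against 16.4% of everything tested in either direction each. With quantile normalization over all channels this split was 4 lower and 11 higher, and with loess alone 1 and 0. From 24 h to 48 h, 3 were called lower (Uqcrh, Cox7b and Atp5g1) and 0 higher, against 6.36% and 5.77%. From 48 h to 72 h, 0 were called lower and 3 higher (Sdha by 0.19, Uqcrc2 by 0.12 and Cox5b by 0.13), against 10.3% and 12.9%. In either direction 32.8%, 12.1% and 23.2% of everything tested was called in these steps. Many of these calls depended on 1 library. Between 6 h and 24 h, the calls of Sdhc, Uqcrc1 and Atp5b held in all 20 fits without 1 library, that of Atp5g1 was lost without 24 h sample 2 Cy3 (0.14) or 6 h sample 1 Cy3 (0.16) or 2 Cy5 (0.15), and that of Atp5g2 without any of 13 libraries (-0.13 to -0.11). The call of Uqcrq was lost without 24 h sample 1 Cy5 (0.12) or 2 Cy3 (0.15) or 6 h sample 1 Cy3 (0.14) or 2 Cy5 (0.15), and its value was 0.00 in a fit without the slide term. This step counted 5 calls without 24 h sample 2 Cy3 or 6 h sample 1 Cy3 and 3 without 6 h sample 2 Cy5, in place of 8. Between 24 h and 48 h, Atp5g1 was lost without 24 h sample 2 Cy3 or 48 h sample 1 Cy5 (-0.14 each), and the count of 3 became 1 without 24 h sample 2 Cy3 and 5 without 48 h sample 2 Cy3. Between 48 h and 72 h all 3 calls were lost without 72 h sample 1 Cy3, 72 h sample 1 Cy5, 48 h sample 1 Cy5 or 48 h sample 2 Cy5, in the last case with 1 other member called. Only Sdha was left without 48 h sample 1 Cy3, and only Cox5b without 72 h sample 2 Cy3. Without these libraries the values ranged from 0.17 to 0.19 for Sdha, from 0.10 to 0.13 for Uqcrc2 and from 0.12 to 0.13 for Cox5b.

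Where a gene had several probes, the one with the strongest mean signal stood for it. Probes can bind RNA of related genes. Of the 38 members 16 had 23 further probes above background, which gave 92 pairs of probe and time against the control. The calls compared here came from a separate fit of single probes. In that fit Atp5c1 at 48 h, called lower in the main fit, was not called (-0.11), and its other probe was not called either (-0.05). Where the probe standing for the gene was called (36 pairs), the other probe was called the same way in 33, not called in 3 and called the opposite way in 0. Where it was not called (56 pairs), another probe was called in 8, all lower and all of Atp5l at 6 h, Atp5h at 6, 48 and 72 h or Atp5j2 at 72 h. Processed pseudogenes named after Atp5k (4), Atp5l (3), Cycs (3), Uqcrh (2), Atp5pb, Atp5c1, Cox5b and Cox7c (1 each) are listed in the RefSeq table. Their part in the signal was not tested, so the values of these genes are uncertain to that extent.

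The factors that assemble the same complexes moved in both directions. Of 39 assembly factors 35 were tested. At 6 h, 4 were called lower (11.4%) and 8 higher (22.9%), against 11.1% and 13.7% of everything tested. At 24 h these were 4 (11.4%) and 9 (25.7%), against 19.1% and 21.2%. At 48 h they were 5 (14.3%) and 10 (28.6%), against 20.3% and 21.5%. At 72 h they were 13 (37.1%) and 8 (22.9%), against 22.6% and 25.2%. The median log2 change was 0.06, 0.02, 0.07 and -0.02 in order of time, and no test of the difference from the subunits was made. Surf1, which helps assemble cytochrome c oxidase, rose by 0.20 ± 0.04, 0.43 ± 0.05, 0.58 ± 0.04 and 0.65 ± 0.05 in order of time (adjusted p = 0.000721 to 2.12e-09). Lrpprc, which stabilises mitochondrial mRNAs, rose by 0.53 ± 0.07, 0.45 ± 0.07 and 0.57 ± 0.07 from 24 h on. Cmc1, a complex IV assembly factor of the intermembrane space, rose by 0.34 ± 0.06, 0.22 ± 0.05 and 0.27 ± 0.06 at the same times, whereas its relative Cmc2 fell at all 4 times, by 0.24 ± 0.06, 0.73 ± 0.07, 0.59 ± 0.07 and 0.95 ± 0.07. Cox20 fell by 0.27 ± 0.09 at 24 h and by 0.49 ± 0.09 at 72 h, and Fastkd5 by 0.21 ± 0.06 and 0.44 ± 0.07 at 48 h and 72 h. For complex III, Uqcc2 and Ttc19 rose by 0.24 at 72 h (standard errors 0.06 and 0.07) and Uqcc1 fell by 0.26 ± 0.05. For complex II, Sdhaf3 rose by 0.32 ± 0.06 and Sdhaf4 fell by 0.20 ± 0.05 at 6 h. For complex V, Tmem70 rose by 0.36 ± 0.05 at 6 h and fell by 0.18 ± 0.06 at 72 h. Of these, the 24 h call of Cox20 was lost without control 2 Cy3 (-0.20) or 24 h sample 1 Cy3 or 2 Cy5 (-0.24 each), and the 48 h call of Fastkd5 without control 2 Cy3 (-0.12) or 48 h sample 2 Cy5 (-0.17). The 72 h call of Tmem70 was lost without control 2 Cy3 (-0.11) or 72 h sample 1 Cy3 (-0.17), 1 Cy5 (-0.17) or 2 Cy3 (-0.18). Without control 2 Cy5 the calls of Cmc1 at 48 h (0.16) and Ttc19 at 72 h (0.20) were lost, and without control 1 Cy3 that of Cmc2 at 6 h (-0.18).

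Other nuclear-encoded subunits of complex IV gave both the widest rise and further falls. Of 12 listed 10 were tested, with 2 called lower and 2 higher at 6 h. The counts were 4 and 2 at 24 h and at 48 h, and 3 and 2 at 72 h. The shares over everything tested were 11.1%, 19.1%, 20.3% and 22.6% lower and 13.7%, 21.2%, 21.5% and 25.2% higher in order of time. The median log2 change of these 10 genes was -0.01, -0.15, -0.01 and -0.07. Cox6a2, the isoform typical of heart and skeletal muscle, had a mean log2 intensity of 9.22 in the controls, 9.98 at 6 h, 12.07 at 24 h, 12.08 at 48 h and 12.45 at 72 h. The fitted rise was 0.71 ± 0.12, 2.82 ± 0.14, 2.83 ± 0.12 and 3.21 ± 0.14. Of the 5 muscle markers, Myog and Myh3 were above background in 0 samples, Myod1 in 2, Des in 5 and Tnnt2 in 20. Des was not called (0.07 ± 0.10 at 72 h), Tnnt2 fell by 2.28 ± 0.09 at 72 h, and the part of muscle cells in the rise of Cox6a2 was not tested. Cox6a1, the isoform found in most tissues, fell by 0.22 ± 0.07 at 24 h and 0.21 ± 0.06 at 48 h. Cox7a2l rose by 0.14 ± 0.04, 0.54 ± 0.05, 0.60 ± 0.05 and 0.52 ± 0.05 in order of time. Without control 2 Cy3 the calls of Cox6a1 were lost (-0.17 and -0.15), and the 6 h call of Cox7a2l was lost without control 1 Cy5 (0.11), 2 Cy3 (0.13) or 2 Cy5 (0.13) or 6 h sample 1 Cy3 (0.12), 1 Cy5 (0.14) or 2 Cy5 (0.14). Cox6b1 fell by 0.38 ± 0.05 at 6 h and 0.28 ± 0.06 at 72 h, and Cox7a2 by 0.29 ± 0.06 and 0.33 ± 0.07.

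Complex I, the NADH dehydrogenase, served as a neighbour for comparison. Its list was made by symbol, as all named genes starting with Nduf that are neither assembly factors (Ndufaf) nor pseudogenes. This rule does not leave out Ndufa4, which was also listed with the other subunits of complex IV. Of the 38 mRNAs of this list, all tested, 6 were called lower and 0 higher at 6 h and 2 and 6 at 24 h. The counts were 5 and 6 at 48 h and 4 and 10 at 72 h. Their medians were -0.04, 0.07, 0.03 and 0.07 in order of time. As shares of this list, 15.8%, 5.26%, 13.2% and 10.5% were called lower and 0%, 15.8%, 15.8% and 26.3% higher. Of everything tested, 11.1%, 19.1%, 20.3% and 22.6% were called lower and 13.7%, 21.2%, 21.5% and 25.2% higher in order of time. The members of complexes II to V had 15, 11, 22 and 17 called lower at these times, and no test of the difference between the lists was made. Of 8 tested regulators of respiratory chain genes, 3 were called higher and 0 lower at 6 h: the mitochondrial transcription factor gene Tfam by 0.23 ± 0.05, the nuclear receptor gene Esrra by 0.21 ± 0.03 and Nrf1 by 0.12 ± 0.04, the last lost without control 1 Cy3 (0.11). The counts were 1 lower and 1 higher at 24 h and at 48 h, and 0 lower and 1 higher at 72 h, against 11.1% lower and 13.7% higher of everything tested at 6 h and 22.6% and 25.2% at 72 h. Nrf1 fell by 0.16 ± 0.04 at 24 h, and Ppargc1a, the coactivator PGC-1 alpha, fell by 0.20 ± 0.08 at 48 h (adjusted p = 0.0494), a call lost without any of 13 libraries (-0.21 to -0.14). Pprc1, a coactivator related to PGC-1, rose by 0.37 ± 0.08, 0.45 ± 0.07 and 0.59 ± 0.08 from 24 h on. In either direction, 24.8%, 40.3%, 41.8% and 47.7% of everything tested was called at 6, 24, 48 and 72 h. Of 8 tested genes that shape the cristae, where the ATP synthase sits, 0 were called at 6 h. At 24 h 2 of these 8 were called lower and 3 higher, and at 48 h and at 72 h 3 and 3. In this list Opa1, the fusion GTPase of the inner membrane, rose by 0.51 ± 0.05 at 72 h, Micos13 by 0.44 ± 0.06 and Chchd6 by 0.45 ± 0.06, and Apoo fell by 0.35 ± 0.06.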

How the data were processed

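Two-colour Agilent arrays of the 20 samples were read from the deposited scanner files, whose spot intensity columns are unnormalized per the file headers. Image analysis used Feature Extraction 10.7.3.1 on slide 1 and 11.0.1.1 on slide 2, per the file headers. The authors' deposited series matrix holds log2 values, whose exact scaling is not given in the sources used here. R 2.15 and limma are named in the submitters' processing notes. Median foreground and background signals of each spot were used. Background was corrected with normexp (offset 50), dyes with loess within arrays and arrays with Aquantile, in limma 3.58.1 under R 4.3.3. Of 62976 spots, 3671 controls were left out. Spots of a probe were averaged, probes well above background in at least 4 samples were kept, and the probe with the strongest mean signal stood for a gene. RefSeq accessions named 26582 of 28116 probes that carried one. The depth of an array is set by its number of samples, 4 per group, and not by counts.

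One limma fit over all 20 samples held group, dye and slide, and treated the array as a random block, whose estimated correlation was 0.25, and Benjamini-Hochberg adjustment ran over 24250 genes and transcripts. No pairing across groups was used. With the fitted terms removed, samples of different groups that share number and dye correlated at -0.56 to 0.17 over 40 pairs (median -0.04). Pairs of the same dye with another number had a median of -0.12 over 50 pairs. Removing fitted terms lowers such correlations, so they cannot exclude a shared source. Samples of a group with the same number and different dyes were not compared, so whether they share a source was not tested. The subunit c tests, permutations in SciPy 1.17.1 that did not take shared arrays into account, were added after the values were seen. The members and gene lists were chosen with earlier results of these data known. Full values go to the 3 largest called falls and the 3 largest called rises of each complex, and up to 3 called genes per direction of each list are named. Atp5g1 and Atp5g2 were given with sample values after those were seen. The fit was tested on simulated data. Alternatives changed the background correction, normalization, dim-probe filter, probe rule, slide, array, replicate block and samples, and left out each sample in turn.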

Additional observations from a re-analysis of the deposited data

Results flagged for a closer look

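In 8 of 190 groups of 4 values of a member, 1 sample lay far from the other samples of its group for the size of their spread (Dixon's ratio). Chance alone marks about 1 in 20 such groups. In the controls, sample 2 Cy3 was highest for Cox8a at 16.46 (next 16.39) and for Atp5md at 14.90 (next 14.81), and sample 2 Cy5 was lowest for Atpif1 at 15.74 (next 15.88). At 6 h, sample 1 Cy5 was highest for Sdha at 14.08 (next 13.90). At 48 h, sample 2 Cy5 was highest for Cox6c at 15.55 (next 15.46). At 72 h, sample 2 Cy3 was lowest for Uqcr11 at 14.53 (next 14.64), and sample 2 Cy5 was highest for Atp5c1 at 15.23 (next 15.18) and for Atp5h at 15.61 (next 15.50).

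In 14 cases a member's change differed between consecutive times, by limma's test of the difference itself. From 6 h to 24 h the log2 differences were 0.27 for Sdhc, -0.19 for Cyc1, -0.28 for Uqcrc1, 0.15 for Uqcrq, 0.17 for Cox7b, -0.29 for Atp5b, 0.15 for Atp5g1 and -0.12 for Atp5g2. From 24 h to 48 h they were -0.26 for Uqcrh, -0.23 for Cox7b and -0.16 for Atp5g1. From 48 h to 72 h they were 0.19 for Sdha, 0.12 for Uqcrc2 and 0.13 for Cox5b.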

How the results depend on the processing

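None of the 73 calls of members against the control changed direction under any alternative, and 25 held under all of them, while 48 lost the threshold under 1 or more; 25 were lost in at least 1 fit without a single sample. Among list genes Micos10 at 24 h moved from -0.19 to 0.02 with the mean of its probes, and among steps Uqcrq from 6 h to 24 h moved from 0.15 to 0.00 without the slide term. The cause was not tested.

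Members called in either direction numbered 16, 13, 24 and 20 against the control in order of time, and 8, 3 and 3 between consecutive times. With loess alone they were 9, 3, 12 at 6, 24 and 72 h, and 1, 0 and 0 between times. With only the 2 groups compared, which leaves fewer samples, they were 4 at 6 h and 13 at 48 h, and 5 and 1 for the first and last steps. With the array as a fixed block, fitted only for 6 h and 48 h against the control, there were 9 at 6 h. At 6 h there were 0 within slide 1, which leaves 2 samples a side, and 10 within slide 2. For the steps, quantile normalization and the authors' matrix values each gave 15 and 0 for the first and last. No filter on dim probes gave 5, 1 and 1, no slide term 1 and 0 for the second and last, the mean of probes 5 for the second, and slide 2 alone 5 for the second. Without 1 sample the ranges were 10 to 17, 10 to 14, 19 to 24 and 18 to 23 against the control. Between times they were 3 to 11, 1 to 5 and 0 to 3. The shares of everything tested under these settings were not set beside these counts.

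Medians moved less. With quantile normalization and with the authors' matrix values the median of all members was -0.11 at 48 h and 0.06 from 6 h to 24 h. Complex III with cytochrome c was then -0.06 at 24 h and -0.12 at 72 h under both, and at 48 h -0.07 and -0.08 in that order, complex IV -0.05 at 24 h and complex V -0.11 at 48 h. With loess alone complex IV was -0.07 at 24 h and -0.08 at 72 h, and with the mean of probes -0.14 at 48 h. Complex V was -0.14 at 24 h without the slide term, and complex II -0.14 at 6 h within slide 2. Without the array with the most spots above background, complex II was 0.13, 0.02 and 0.13 at 24, 48 and 72 h, and complex III -0.01 at 6 h and -0.07 at 24 h. Without 1 sample, the median of complex II ranged from -0.14 to -0.04 at 6 h, from 0.01 to 0.13 at 24 h and at 72 h, and from -0.09 to 0.03 at 48 h. That of complex III ranged from -0.09 to 0.02 at 6 h and from -0.19 to -0.14 at 48 h, that of complex V from -0.17 to -0.10 at 6 h, and that of all members from -0.09 to -0.05 between 24 h and 48 h.

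With the replicate block the counts were 16, 11, 23 and 20 against the control and 7, 3 and 3 between times. This block has a level for each number and dye of the titles, and samples that share both had a median correlation of -0.04 with the fitted terms removed. The number of arrays, with 4 samples a group, limits the precision, and the signal of all members lay well above background.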
